A study of Mus musculus with 3 samples.

Results

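The interferon-stimulated genes and their regulators were followed through cementogenic induction of OCCM-30, a mouse cell line of cementoblasts, which form the cementum of the tooth root. Members were chosen by gene symbol alone: the interferon receptors, signal-transducing factors such as Stat2, the interferon regulatory factors (Irf), the RNA sensors Ddx58 and Ifih1, and the effector families named Ifit, Ifi, Oas, Gbp, Mx, Isg, Irg and Parp9, Parp12 and Parp14, with Rsad2, Usp18, Bst2 and Xaf1. Of 46095 genes counted, 81 matched. A summed count of 20 or more over the 3 libraries was reached by 55 of them, 15 had a summed count of 1 to 19, and 11 had no count. The libraries were wild-type OCCM-30 cells without induction (day 0) and after 7 and 14 days in cementogenic medium, each of total RNA. The medium's composition and the origin of the cultures are not stated in the labels, and no uninduced culture of the later days was analysed here, so time in culture and induction cannot be told apart.

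Interferons are secreted alarm signals. Type I interferons act through the receptor chains Ifnar1 and Ifnar2, and interferon gamma through Ifngr1 and Ifngr2; the chains carry Janus kinases that phosphorylate STAT proteins. Complexes that hold Stat2 and Irf9 bind a promoter element, the interferon-stimulated response element (ISRE), and STAT dimers bind another, the gamma-activated site (GAS), to switch on antiviral and antimicrobial effectors. Many cells keep a low level of these genes without added interferon. In bone, interferons are known above all as restraints on osteoclast formation.

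Each day had 1 library, so differences have no replicate check and no p-values were computed. Values are counts scaled to a common library size by TMM and expressed as CPM, or the authors' FPKM where levels of different genes are compared per length. Rose and fell are used of genes where the higher library had 1 CPM or more, the scaled counts differed at least 2-fold and the 95% interval of their ratio, from counting error alone, excluded no change. Log2 ratios include 0.5 CPM and are smaller than the fold for low genes. Totals were 13224690, 14034518 and 14439666 counts on day 0, 7 and 14, and a floor of 3 counts stood at 0.211, 0.221 and 0.216 CPM. All 8 cementoblast and osteoblast markers were counted in every library, among them Sp7, the factor osterix, with 138, 3032 and 3441 counts, Alpl and Runx2. Leukocyte markers were near absent: Adgre1, Itgam, Tyrobp and Cd3e had 0 counts on every day and Ptprc 1, 0 and 0, and the 11 markers together summed to 6.18, 3.54 and 3.67 CPM. Most of this was Cd68, at 55, 39 and 33 counts, and Fcer1g, at 19, 6 and 17, of which Fcer1g fell on day 7. Lyz2, with 10, 0 and 0 counts, was seen on day 0 only and was too low to compare. In bulk RNA, fewer cells of a kind and less RNA per cell cannot be told apart.

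Promoters of members that fell and hold the interferon element are shown first. An ISRE core was searched on both strands as GAAA followed by any 2 bases and GAAA again, in RefSeq windows (GRCm38.p6) from 250 bases before to 50 after each gene's start. Shown are the 4 with the largest log2 change among members that have a core, a summed count of 20 or more and a call on day 7. Ifi44, Mx2 and other members without a match, or with no promoter in the table, changed more than the last of them. They are Gbp3, a guanylate-binding GTPase, chr3:142559794-142560093 on the plus strand, Ifit1, which binds foreign RNA caps, chr19:34640639-34640938 on the plus strand, Isg15, a ubiquitin-like protein, chr4:156200769-156201068 on the minus strand, and Gbp7, chr3:142530086-142530385 on the plus strand. Each is written 5′ to 3′ in the direction of the gene, with the matches in capitals; where the match lies on the opposite strand it reads TTTC, 2 bases, TTTC.
Gbp3: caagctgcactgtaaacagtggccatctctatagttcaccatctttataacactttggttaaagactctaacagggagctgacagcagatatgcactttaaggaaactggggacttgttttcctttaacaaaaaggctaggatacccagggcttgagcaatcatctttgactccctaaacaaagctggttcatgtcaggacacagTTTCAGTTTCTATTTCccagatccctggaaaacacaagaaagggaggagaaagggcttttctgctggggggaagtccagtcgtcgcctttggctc
Ifit1: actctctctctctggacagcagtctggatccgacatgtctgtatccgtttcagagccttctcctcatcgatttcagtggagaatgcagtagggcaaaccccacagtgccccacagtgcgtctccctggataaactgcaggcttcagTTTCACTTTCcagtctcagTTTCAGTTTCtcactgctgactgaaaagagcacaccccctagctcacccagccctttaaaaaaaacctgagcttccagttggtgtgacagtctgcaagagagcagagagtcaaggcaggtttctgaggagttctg
Isg15: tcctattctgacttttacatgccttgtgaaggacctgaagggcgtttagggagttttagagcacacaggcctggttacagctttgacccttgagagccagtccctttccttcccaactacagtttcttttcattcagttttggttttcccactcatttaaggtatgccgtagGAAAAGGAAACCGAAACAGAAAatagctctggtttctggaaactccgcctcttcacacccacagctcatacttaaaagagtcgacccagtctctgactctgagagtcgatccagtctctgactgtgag
Gbp7: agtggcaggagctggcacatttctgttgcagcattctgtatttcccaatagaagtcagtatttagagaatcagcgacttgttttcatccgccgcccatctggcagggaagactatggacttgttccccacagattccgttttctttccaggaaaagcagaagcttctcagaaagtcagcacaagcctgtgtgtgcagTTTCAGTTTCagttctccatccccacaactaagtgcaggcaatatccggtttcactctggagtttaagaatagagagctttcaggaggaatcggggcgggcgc

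The first base of the first match lay 45 bases before the start in Gbp3, 104 in Ifit1, 78 in Isg15 and 53 in Gbp7. Matches overlapped in Gbp3, which held 2, and in Isg15, which held 3, while the 2 matches of Ifit1 lay apart. A promoter was in the table for 58 members, and 28 of them, 48.3%, held the core, beside 3.99% of all 27025 genes in the table. Of the 13 members with a promoter that fell on day 7, 8 held it: Gbp2, Gbp2b, Gbp3, Gbp7, Ifit1, Ifitm3, Irgm1 and Isg15. Of the 5 that rose it was in 1, Irf2, and of the 27 that stayed within the rule in 11, such as Stat2, Ifih1 and Bst2. The 13 members too low to compare held it in 8 cases. The GAS letters, TTC, any 3 bases and GAA, were in 17 of the 58 (29.3%), beside 9.55% of all genes. Among these are Irf1 and Irf2, and the ISRE core is in the window of Irf2 but not of Irf1. A match describes letters, not a bound site, and whether the shares differ between members that fell and members that did not was not tested.

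**Figure D1:**
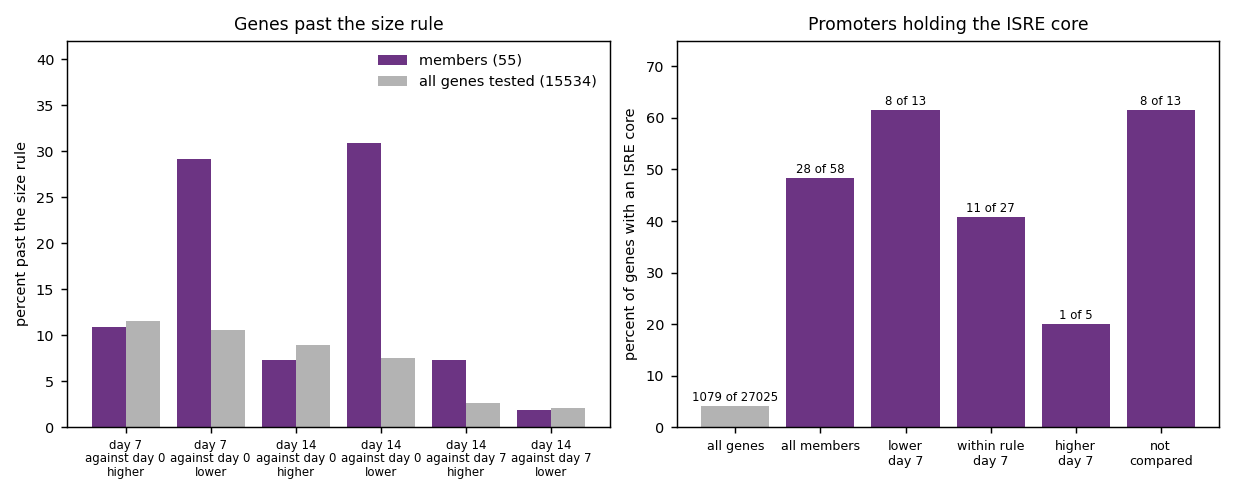
Left, the percent of the 55 members and of all 15534 genes with a summed count of 20 or more that passed the size rule, in each comparison and direction; right, the percent of genes whose promoter window holds the ISRE core, with the number of genes above each bar. In both comparisons with day 0 the share called lower was larger among members than among all genes (29.1% and 10.6%, then 30.9% and 7.47%), and the shares called higher were close. Gbp4, Gbp9 and Ifit1, called lower in both, reached the summed count of 20 only with the day 0 library, which favours a fall.

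On day 7 Gbp, Ifit1, Isg15, Ifi44 and other effector genes were lower than on day 0, while neither the receptor genes nor Stat2 passed the rule. Of the 55 members compared 16 fell, 29.1%, beside 10.6% of all 15534 genes with the same summed count. Among the 16, Gbp4, Gbp9 and Ifit1 would not have reached that summed count without the day 0 library. With a summed count of 50 required, 14 of 50 members fell. That limit counts the day 0 library too, so it does not remove the favour given to falls. Gbp2, Gbp2b, Gbp3, Ifit1, Ifitm6 and Oasl2 would have missed it without day 0. The share of all genes at that limit is not given here. Another 6 rose, 10.9%, beside 11.5% of all genes, a share near the background. The median log2 ratio of the members was -0.23, and that of all genes tested 0.01. The members summed to 777 FPKM on day 0, 587 on day 7 and 586 on day 14. Scaling by total counts shifted the median of all genes by -0.14 on day 7 and -0.15 on day 14. It gave 5 members up and 19 down on day 7. Over all 15534 genes it gave 1473 up and 2085 down, where the main scaling gave 1794 and 1651. The sum of the leukocyte markers given above moved in the same direction as the members that fell, and the part of these markers in the result was not tested.

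**Figure D2:**
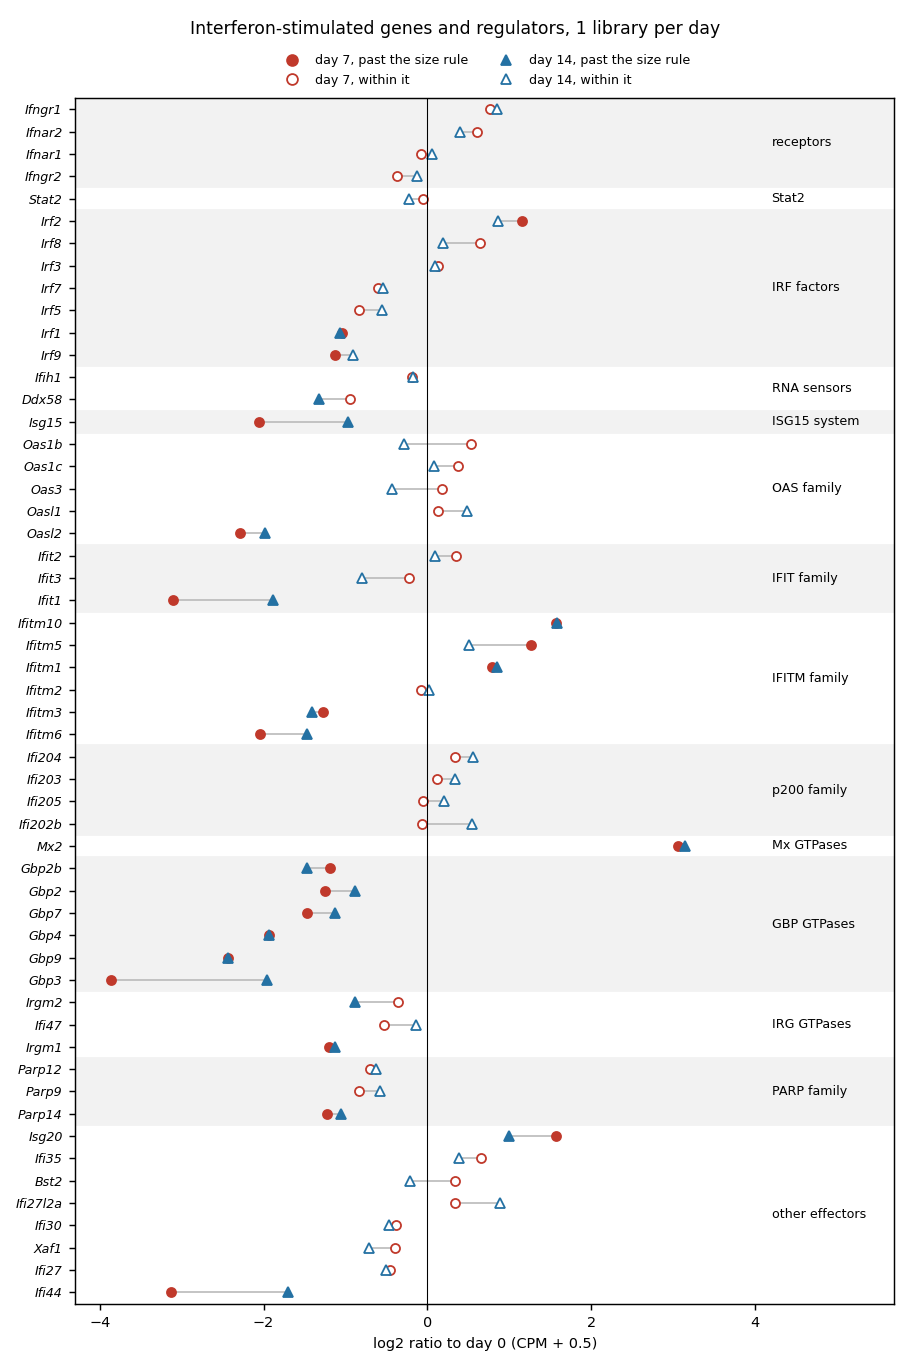
Log2 ratio to day 0 (CPM with 0.5 added) of the members compared, by role, with day 7 as circles and day 14 as triangles; filled symbols passed the size rule and open symbols did not. All 6 GBP genes lie left of 0 on both days, the receptors and Stat2 are all open symbols, and Mx2 lies alone at 3.06 and 3.15.

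The interferon ligands were barely counted. No count was found for 17 of 21 interferon genes listed, and the other 4, Ifna11, Ifna2, Ifne and Ifnz, summed to 2, 5 and 4 counts on day 0, 7 and 14. Only Ifne passed the floor of 3 counts in a library, with 4 on day 7. Neither Ifnb1 nor Ifng was among those with a count. At this depth no change in a ligand could be seen.

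None of the 4 receptor chains passed the size rule on either day. Ifnar1 had 114, 108 and 118 CPM and Ifnar2 36.2, 55.5 and 47.7 CPM on day 0, 7 and 14. Ifngr1, the ligand-binding chain for interferon gamma, had 29.0, 49.6 and 52.5 CPM, a day 7 ratio of 1.71 (95% counting interval 1.51 to 1.94). Ifngr2, its partner chain, had 63.3, 48.9 and 58.0 CPM. By level per length the gamma chains differed on day 0 (14.9 FPKM for Ifngr1 and 32.9 for Ifngr2) and stood at 22.8 FPKM each on day 7. Stat2, a transcription factor that the type I receptor activates, had 38.7, 37.3 and 33.1 CPM, within 2-fold.

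Among the kinases, which the rule for members leaves out, Jak2 rose. It had 62.0 CPM on day 0, 193 on day 7 and 220 on day 14, higher after induction on both days. Its day 7 ratio was 3.12 (2.89 to 3.37) and its day 14 ratio 3.55 (3.29 to 3.83). Jak2 serves the gamma receptor and also growth hormone and other cytokine receptors. Jak1, used by both kinds of interferon receptor, had 267, 229 and 229 CPM, and Tyk2, the partner of Ifnar1, 26.2, 34.2 and 31.1 CPM. Of 8 kinases and other STATs compared Jak2 alone passed the rule. A rise in 1 of 8 is near the 11.5% of all genes tested that rose on day 7. On day 14 that share was 8.92%. Stat6 (-0.60), Stat5b (0.45) and Tyk2 (0.38 on the log2 scale) followed Jak2 in size on day 7.

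**Figure D3:**
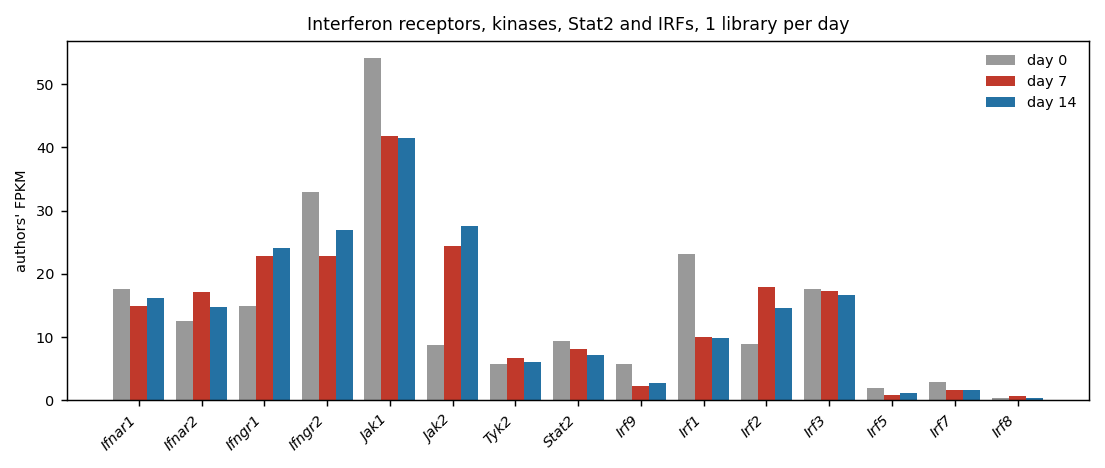
The authors' FPKM of interferon receptors, Janus kinases, Stat2 and Irf factors on day 0 (grey), day 7 (red) and day 14 (blue), 1 library per bar. Jak2 and Irf2 are higher and Irf1 and Irf9 lower on day 7 than on day 0.

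The interferon regulatory factors split. Irf1, an activator of interferon and of its target genes, had 46.0 CPM on day 0, 22.1 on day 7 and 21.7 on day 14. It was high on day 0 only, and fell 2.08-fold (1.81 to 2.39) by day 7 and 2.12-fold (1.85 to 2.44) by day 14. Irf2, which binds the same element and can hold Irf1 off it, had 31.4, 70.4 and 57.4 CPM. It rose 2.24-fold (2.0 to 2.51) by day 7, and its day 14 ratio of 1.83 (1.63 to 2.06) was within the rule. Within each library, where scaling cancels, Irf2 stood at 0.682 counts per count of Irf1 on day 0, 3.18 on day 7 and 2.64 on day 14. Per length the ratio of FPKM was 0.384, 1.79 and 1.49, so that the order of the pair turned over.

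Irf9, the DNA-binding partner of Stat2, had 13.8 CPM on day 0, 6.05 on day 7 and 7.13 on day 14. It fell 2.28-fold (1.75 to 2.98) by day 7, and with a ratio of 1.93-fold lower (1.51 to 2.49) missed the rule on day 14, which it passed with total counts or the authors' FPKM. Irf3, the factor that turns on interferon beta, had 35.7, 39.2 and 37.9 CPM. The amplifier Irf7 had 5.06, 3.17 and 3.31 CPM, Irf5 4.36, 2.21 and 2.81 CPM, and Irf8 1.2, 2.14 and 1.44 CPM; none of these passed. Irf4, of lymphoid cells, had 5 counts in all.

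The RNA sensors differed from each other. Ddx58, which encodes RIG-I, had 72.5 CPM on day 0, 37.3 on day 7 and 28.7 on day 14. Highest on day 0, it was 1.94-fold lower (1.74 to 2.16) on day 7, short of the rule, and fell 2.53-fold (2.25 to 2.85) by day 14. With total counts, or with the authors' FPKM, it passed on day 7 as well. Ifih1, encoding the sensor MDA5, had 8.08, 7.01 and 7.13 CPM.

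Of the guanylate-binding protein genes, large GTPases that coat pathogens and their vacuoles, Gbp2, Gbp2b, Gbp3 and Gbp7 fell by day 7 and were also down on day 14. Gbp4 and Gbp9 were called lower too, but reached the summed count of 20 only through the day 0 library, where they were high, so the filter itself favoured a fall. Gbp3 had 112 counts on day 0, 1 on day 7 and 23 on day 14, and fell 107-fold (18.8 to 4252) by day 7 and 4.76-fold (3.02 to 7.81) by day 14. Gbp7 had 114, 35 and 47 counts and fell 3.10-fold (2.11 to 4.67) by day 7; 12.7% of its 50-base runs are shared, mainly with Gm43802. Gbp2 had 55, 18 and 26 counts, Gbp2b 38, 12 and 9, and Gbp9 37, 1 and 1.

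Gbp4, at 20, 0 and 0 counts, was at least 6.35-fold lower on day 7 against the floor per library and at least 6.51-fold lower on day 14. It just reached the summed count of 20. Gbp4 and Gbp9 did not reach 1 FPKM in any library, so their calls were lost with the authors' FPKM. The genes lie in a pair of clusters: those on chromosome 3, with 6 members, summed to 323, 66 and 106 counts, and those on chromosome 5, with 6, to 65, 1 and 3. The other 6 GBP members, Gbp5, Gbp6, Gbp8, Gbp10, Gbp11 and Gbp2-ps, had 0 to 5 counts each over the 3 libraries.

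Among the immunity-related GTPases Irgm1, a regulator of the family, had 23.9, 10.1 and 10.7 CPM and fell 2.36-fold (1.93 to 2.91) by day 7 and 2.24-fold (1.84 to 2.74) by day 14. Irgm2, listed on a scaffold, passed the rule on day 14, from 25 to 10 counts, but not with the authors' FPKM, where it stayed under 1 FPKM. Ifi47 had 56, 35 and 49 counts and did not pass. Iigp1 had 3 counts in all and Igtp, listed on a scaffold too, none.

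**Figure D4:**
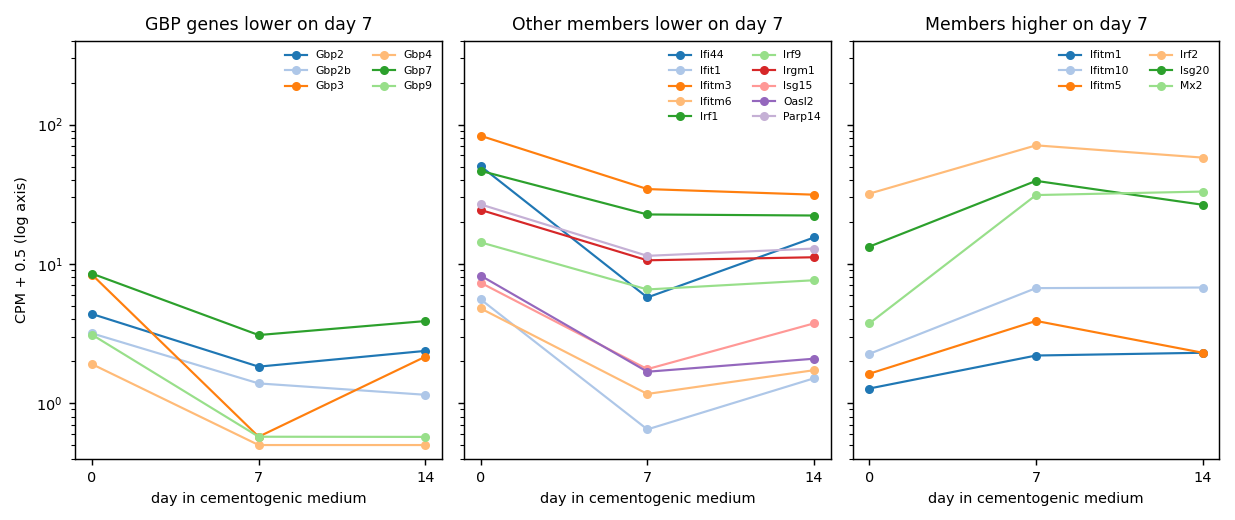
CPM with 0.5 added, on a log axis, by day for the GBP genes that fell by day 7 (left), the other members that fell (middle) and the members that rose (right); each line is a gene and each point 1 library. Gbp3, Ifi44, Ifit1 and Isg15 are lowest on day 7 and partly back on day 14.

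Several classical effectors had their lowest value on day 7 and a higher one on day 14. Ifi44, a cytoplasmic protein induced by interferon (chromosome 3, 151730922 to 151749959), had 708 counts on day 0, 71 on day 7 and 208 on day 14. Ifit1 (chromosome 19, 34640889 to 34650009) had 72, 2 and 14 counts, and Isg15 (chromosome 4, 156199424 to 156200818) 97, 17 and 45. On day 7 Ifit1 was down 34.3-fold (9.16 to 289) and Isg15 5.44-fold (3.23 to 9.71). On day 14 Ifi44 was 3.32-fold (2.84 to 3.90), Ifit1 5.02-fold (2.81 to 9.64) and Isg15 2.10-fold (1.46 to 3.07) below day 0. Usp18, the protease that removes Isg15 from proteins, had 11, 0 and 1 counts and was too low to compare.

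Between day 7 and day 14, 4 members rose, 7.27% beside 2.57% of all genes tested, and 1 fell, 1.82% beside 2.1%. Those that rose were Gbp3, 22.4-fold (3.64 to 925) from 1 count, Ifit1, 6.83-fold (1.57 to 61.9) from 2 counts, Ifi44, 2.86-fold (2.17 to 3.8), and Isg15, 2.58-fold (1.45 to 4.81). The calls of Gbp3 and Ifit1 were lost with the authors' FPKM, where both stayed under 1 FPKM on the later days, and that of Ifit1 also with total counts. The same day 7 library enters this comparison and that with day 0. Of the 16 members down on day 7, 11 had a day 14 CPM between those of day 7 and day 0, and 5 one at or below day 7. These 16 were chosen by a low day 7 value, which itself favours a higher value on day 14. The same shares over all genes that fell on day 7 are not given here, so no trait of the members can be read from them. The gene that fell was Oas1b, with 24, 36 and 18 counts.

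Genes beside Ifit1 varied. Ifit2, at the locus on chromosome 19, had 26.9 CPM on day 0, 34.4 on day 7 and 28.8 on day 14, a day 7 ratio of 1.28 (1.11 to 1.47). Ifit3 had 16, 12 and 6 counts and its near copy Ifit3b 13, 0 and 0; 51.2% of the 50-base runs of Ifit3 are in Ifit3b, so reads can move between them. The 6 genes of the locus summed to 488, 480 and 420 counts, most of them from Ifit2.

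The oligoadenylate synthetase family, which makes the activator of the antiviral ribonuclease L, was low. Of 12 members 5 were compared, and Oasl2, a relative with ubiquitin-like domains, fell. Oasl2 had 110 counts on day 0, 16 on day 7 and 22 on day 14, and was 6.55-fold (3.86 to 11.9) and 4.88-fold (3.07 to 8.11) lower. The others, Oas1b, Oas1c, Oas3 and Oasl1, each had 9 to 36 counts per library and did not pass against day 0. Oas1a, Oas1d, Oas1f and Oas1h had no count.

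The Ifitm genes, small membrane proteins of which several block virus entry, held the highest levels among the members and went both ways. Ifitm2 had 165, 140 and 150 FPKM and did not pass, with 96.3, 90.9 and 97.7 CPM; 48.5% of its 50-base runs are shared, mainly with Gm45717. Ifitm3, the best known virus restriction gene of the family, had 82.6 CPM on day 0, 33.9 on day 7 and 30.9 on day 14. It was high on day 0 alone and fell 2.43-fold (2.18 to 2.72) and 2.67-fold (2.39 to 2.99), with 10% of its runs shared. Ifitm6 had 61, 9 and 17 counts, a fall of 6.46-fold (3.19 to 14.8) by day 7.

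Ifitm5, the family member of bone and mineralising osteoblasts, had 16, 46 and 25 counts. It rose 3.02-fold (1.68 to 5.71) by day 7, and its day 14 ratio was 1.60 (0.821 to 3.21); 25.3% of its runs are shared with Gm45717. Ifitm10 had 25, 84 and 87 counts and rose 3.53-fold (2.23 to 5.75) by day 7 and 3.56-fold (2.26 to 5.80) by day 14. Ifitm1, with 11, 23 and 25 counts, was just past the rule, 2.19-fold (1.03 to 4.99) on day 7, and not so with total counts or FPKM. These 6 genes lie on chromosome 7, and their counts summed to 2658, 1854 and 1940; Ifitm7, on chromosome 16, had none.

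Mx2 was the member with the largest rise. This dynamin-like antiviral GTPase (chromosome 16, 97536081 to 97560901) had 46 counts on day 0, 416 on day 7 and 452 on day 14. By level per length it went from 1.44 to 12.2 and 12.9 FPKM. Both later libraries stood far above day 0, and the day 14 ratio was 10.1 (7.42 to 13.9). Its neighbour Mx1 (97447035 to 97462906), a standard readout of type I interferon, had 3, 3 and 11 counts, too few to compare. Isg20, an exonuclease for single-stranded RNA, had 12.8, 38.9 and 26.1 CPM and rose 3.04-fold (2.57 to 3.62) by day 7 and 2.04-fold (1.70 to 2.45) by day 14, the latter not with total counts or FPKM.

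Parp14, an ADP-ribosyltransferase, had 26.2, 10.9 and 12.4 CPM and fell 2.40-fold (1.98 to 2.93) by day 7 and 2.12-fold (1.76 to 2.55) by day 14. Parp9 had 37.9, 21.1 and 25.1 CPM and Parp12 32.5, 19.8 and 20.9 CPM. Both had their highest library on day 0, without passing the rule on either day. Rsad2 (viperin) had 15, 0 and 3 counts, a summed count just below the limit.

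The other effectors were within 2-fold. Ifi30, a lysosomal thiol reductase of antigen processing and the third most abundant member by FPKM averaged over the 3 libraries, had 95, 65.4 and 61.1 FPKM. Ifi35 had 26.0, 36.9 and 30.4 FPKM, with 10.4% of its runs shared. Ifi27 had 24.3, 17.5 and 17.0 CPM, and Ifi27l2a, which the table lists across the same stretch of chromosome 12 on the other strand, 10.4, 13.3 and 19.6 CPM. Bst2 (tetherin) had 7.87, 10.1 and 6.69 CPM and Xaf1, a proapoptotic factor, 7.17, 5.31 and 4.17 CPM. Of the p200 family of DNA-binding proteins, Ifi202b, on chromosome 1, had 30.5, 29.0 and 44.8 CPM, highest on day 14 at 1.47 times day 0 (1.30 to 1.67). Ifi203, Ifi204 and Ifi205 had 11 to 62 counts per library and did not pass.

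On day 14, 17 of the 55 members were down against day 0, 30.9%, beside 7.47% of all genes tested. Among the 17, Gbp4, Gbp9 and Ifit1 reached the summed count of 20 only with the day 0 library, so the filter favoured a fall. Up were 4, Ifitm1, Ifitm10, Isg20 and Mx2, 7.27% beside 8.92%. The median log2 ratio was -0.29, with 0.00 over all genes. Of the 16 genes down on day 7 all but Irf9 were called down again, and Ddx58 and Irgm2 were added. Both comparisons use the day 0 library, so that library's own error enters each. The share of all genes called down on both days is not given here. Total counts gave 2 up and 19 down. Over all genes tested they gave 1139 up and 1505 down, where the main scaling gave 1386 and 1160.

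Interferon-induced genes outside the naming rule were read from a further list of 50. Of the 36 compared, 13 fell on day 7 and 1, Mnda, rose, with a median log2 ratio of -0.55; over all genes tested 10.6% fell and 11.5% rose, with a median of 0.01. Mnda stayed under 1 FPKM, so its call was lost with the authors' FPKM. Of the genes that fell, Cxcl10, Tgtp1 and Cd274 reached the summed count of 20 only with the day 0 library. Apol9a, an apolipoprotein L gene, had 426 counts on day 0, 39 on day 7 and 54 on day 14, and Apol9b 282, 28 and 30; the pair are close relatives, and reads may be split between them. Slfn8, a schlafen family gene, had 79, 9 and 28 counts, and Plscr1, a phospholipid scramblase, 566, 115 and 155. Each was highest on day 0 and fell on day 7, Apol9a 10.4-fold (7.49 to 14.8), Slfn8 8.36-fold (4.19 to 19) and Plscr1 4.69-fold (3.83 to 5.78).

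The abundant Rnf213, a giant ubiquitin ligase, had 541, 190 and 273 CPM and fell 2.85-fold (2.73 to 2.99). Mov10, an RNA helicase, had 101, 31.9 and 31.6 CPM and fell 3.16-fold (2.83 to 3.53). Uba7, the activating enzyme for Isg15, had 213, 57 and 71 counts and fell 3.56-fold (2.65 to 4.86), and the chemokine gene Cxcl10 had 46, 10 and 5 counts. The remaining falls on day 7 were those of Zc3hav1, Slfn9, Nmi, Tgtp1 and Cd274. On day 14, 9 of the 36 were down and 3, Mnda, Mndal and Nlrc5, were up, beside 7.47% and 8.92% of all genes. Among the 9 were Cxcl10, Tgtp1 and Cd274, which reached the summed count of 20 only with the day 0 library. The day 14 calls of Mnda and Nlrc5 were lost with total counts and with the authors' FPKM. Slfn8 alone rose from day 7 to day 14, 3.04-fold (1.39 to 7.31). A rise in 1 of 36 is near the 2.57% of all genes tested that rose.

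Of 17 nucleic acid sensing genes compared 4 fell on day 7 and none rose, beside 10.6% and 11.5% of all genes tested. Tmem173, which encodes the DNA-sensing adaptor STING, had 15.3, 3.69 and 6.77 CPM, a fall of 4.2-fold (3.04 to 5.77). Tlr3, the endosomal receptor for double-stranded RNA, had 91, 22 and 40 counts and fell 3.94-fold (2.45 to 6.60). Dhx58, a relative of Ddx58, fell 2.45-fold (1.64 to 3.73), and Rnaseh2b 2.13-fold (1.70 to 2.69). The first 3 were down on day 14 too, 3 of 17 beside 7.47% of all genes tested. Mavs, the adaptor of the RNA sensors, had 680, 697 and 648 counts, and Mb21d1, the DNA sensor cGAS, 378, 389 and 357.

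Of 12 inhibitors of the pathway 2 fell and 1 rose on day 7, near the 10.6% and 11.5% of all genes tested. Socs1, a feedback inhibitor of Janus kinases that interferon itself induces, had 82, 26 and 48 counts and fell 3.01-fold (1.91 to 4.87). Ptpn6, the phosphatase SHP-1, had 125, 36 and 60 counts and fell 3.31-fold (2.27 to 4.94). Pias1, an inhibitor of STAT binding to DNA, had 86.0, 172 and 161 CPM and just reached the rule at 2.0-fold (1.87 to 2.15). Its call was lost with total counts, with DESeq2 size factors and with the authors' FPKM, at 15.4 and 27.6 on day 0 and 7. Socs3 had 42.5, 28.1 and 28.9 CPM and did not pass. On day 14 Ptpn6 alone of the 12 passed, 2.03-fold lower (1.48 to 2.82). A fall in 1 of 12 is near the 7.47% of all genes tested that fell.

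Epithelial and endothelial markers were low as well, and 1 of them moved with the members that fell. The 6 markers summed to 66, 38 and 16 counts, and Epcam and Cdh5 had none. Krt8, a keratin of simple epithelia, had 47, 2 and 0 counts and was called lower on day 7 and day 14. It reached the summed count needed for a call only with the day 0 library, so the filter favoured a fall. Krt18 and Cdh1 had 0, 2 and 1 counts each, too low to compare. Pecam1, an endothelial adhesion molecule, had 19, 32 and 14. The part of these markers in the results was not tested.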

How the data were processed

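The authors deposited whole-number read counts and FPKM values for 46095 genes, with gene locations. The submitters' processing notes name mm10 and, among tools, HISAT2, TopHat, Cufflinks, HTSeq and DESeq, without version or role. Whether counting used strand is not given in the sources used, so reads of genes on opposite strands may be mixed. Columns were matched to the 3 time points by the sample titles, and 0 columns were left unmatched. The miRNA tables were not used. Values of some members are not reported here, and the figures by gene leave such members out, while counts over all members include them.

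Counts were scaled with TMM factors (1.08, 0.966 and 0.962 for day 0, 7 and 14) from edgeR 4.0.16 in R 4.3.3. Each ratio of scaled counts has an exact Clopper-Pearson 95% interval, conditional on the summed counts; these intervals, like the floors, cover counting error alone, because no molecular identifiers are described and PCR copies are not independent. For the size rule 3 counts per library stood in for a count of 0. Calls were made across the 15534 genes with a summed count of 20 or more. The calling was also run on simulated counts with counting error alone, so the simulation could not show false calls from variation between cultures. Sequence shared with other genes was the percent of 50-base runs of a member's GENCODE M21 transcripts found in another gene's transcripts, on either strand; read length is not stated.

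Members, lists, comparisons and alternatives were chosen with earlier results of these data known, and the list of the p200 family was corrected after the values were seen. Named were every member called, the receptors, Stat2 and Irf members, the 5 most abundant members by FPKM, members near a summed count of 20, and, in the other lists, called genes and up to 4 with the largest ratio; any other gene named was chosen after its values were seen. Gene values given as counts are unscaled. Promoter sequences are from RefSeq. Alternatives were other scalings (total counts, DESeq2 1.42.0 size factors), pseudocounts, minimum levels and folds, and the authors' FPKM. Intervals came from scipy 1.17.1 under Python 3.11.15, and figures from matplotlib 3.10.9.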

Additional observations from a re-analysis of the deposited data

How the results depend on the processing

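No paired analysis was possible because each day had 1 library. No direction of a member that had passed the size rule reversed under any alternative run, but these runs could hardly reverse one. They changed thresholds, pseudocounts, scaling or the set of members, and the FPKM calls also used the main counting intervals. The counts on day 7 (6 members up, 16 down; 3 and 19 in the other pathway lists) and on day 14 (4 and 17; 4 and 13) moved most with the threshold. At 4-fold they were 1 and 8 (0 and 7 in the other lists) on day 7. On day 14 they were 1 and 6 (0 and 4). For day 14 against day 7 they were 2 and 0 (0 up in the lists), where the main counts were 4 and 1 (1 and 0 in the lists). Over all 15534 genes 4-fold gave 713 up and 609 down on day 7 and 590 and 365 on day 14. Between the later days it gave 76 and 56. At 1.5-fold 5 genes of the other lists were up on day 7. On day 14, 7 members were up and 20 genes of the lists down. Between day 7 and day 14, 3 members were down, with 8 up and 1 down in the lists. Over all genes 1.5-fold gave 2935 up and 2933 down on day 7 and 2309 and 2176 on day 14. Between the later days it gave 905 and 790. A minimum of 5 CPM left 11 members down and 2 genes of the lists up on day 14. Between the later days it left 1 up and 0 down (0 up in the lists). Over all genes it left 794 up and 649 down on day 14, and 111 and 71 between the later days. Total counts gave 2 members and 2 genes of the lists up on day 14, with 1139 up over all genes. The authors' FPKM gave 1 gene of the lists up on day 7 and 2 on day 14. From day 7 to day 14 they gave 2 members and 0 genes of the lists up. Over all genes they gave 1215 up on day 7, 906 on day 14 and 224 from day 7 to day 14. DESeq2 size factors, pseudocounts of 0.1 and 2 CPM, no minimum, a summed count of 50 and, chosen after seeing the data, leaving out 12 members with 10% or more of their 50-base runs in other genes kept every member count within 1.5 times. Members under about 50 counts per library, among them Gbp2b, Gbp9, Ifitm1 and Irgm2, have wide intervals, and variation between cultures is not covered by any of these values.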
